A study of Mus musculus with 2 samples.

Results

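The nuclei described here were picked out of a mouse brain single-nucleus ATAC-seq experiment for high accessibility at Prox1, Adarb2, Htr3a, Vip, Calb2 and Npas1, a set of 6 markers of the interneurons that arise in the caudal ganglionic eminence. For each nucleus, the fragments over the bodies of these genes plus 2 kb upstream were summed (k) and set against the number expected from its depth (E), with the rate taken from all nuclei of both libraries. A nucleus was kept when (k − E)/√E, called z below, was at least 3 and k was at least 5. The rule kept 597 of 10329 nuclei, 354 of 5949 in the sham library and 243 of 4380 in the stroke library. Members were thus selected on measured accessibility, so their levels at the 6 markers are given as a description, with no test.

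The study asked how chromatin in the brain differs 48 h after transient occlusion of the middle cerebral artery. Male C57BL/6J mice, wild type and 8 to 12 weeks old, had a filament placed for 1 h and then withdrawn, and sham mice had the surgery with no sustained occlusion. There was 1 library per condition, from nuclei of 4 pooled brains each, without olfactory bulb and cerebellum. Sham nuclei came from whole brains and stroke nuclei from the ipsilateral hemispheres, so injury, hemisphere and library cannot be told apart in any sham against stroke value. With 1 library per condition no test between conditions was possible, and the intervals below, all 95%, cover counting error only. In pooled libraries, fewer nuclei of a type and lower accessibility per nucleus also cannot be told apart for a value summed over nuclei of mixed type.

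Cortical and hippocampal inhibitory neurons come mainly from the medial and the caudal ganglionic eminences of the embryo. Cells of medial origin keep the transcription factor Lhx6 and include the parvalbumin and somatostatin classes. Cells of caudal origin use the homeobox factor Prox1, carry the RNA-editing family protein Adarb2, and include cells with vasoactive intestinal peptide (Vip), calretinin (Calb2), the ionotropic serotonin receptor Htr3a, cholecystokinin, or Lamp5 and reelin. Adarb2, the RNA-binding relative of the editing enzymes, is the broadest marker of this group. Prox1 is also used by dentate granule cells, and Npas1, a basic helix-loop-helix factor, also by neurons of the pallidum, so no single marker is decisive. Accessibility of a gene body tends to go with its transcription, but it is not a measure of RNA.

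Adarb2 supplied most of the fragments that made a nucleus a member. Over its 565.882 kb (chr13:8202866-8768747, GRCm38) it gave 3463 fragments in sham members and 2164 in stroke members, which is 78.7% and 78.3% of all marker fragments there. More than 50% of k came from Adarb2 in 79.7% of sham and 81.9% of stroke members, and all of k did in 33.3% and 35.0%. The other 5 markers, which are far shorter, were seen in fewer members. Prox1 had a fragment in 32.8% of sham and 33.3% of stroke members, Npas1 in 28.2% and 26.3%, Calb2 in 22.3% and 25.5%, Htr3a in 11.9% and 9.47%, and Vip in 4.24% and 4.12%. Adarb2 and Prox1 were seen together in 30.8% of sham and 31.3% of stroke members. A single marker was seen in 37.0% and 37.9% of members, and no member carried all 6.

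Levels are given in CPM, the fragments over a gene per 1000000 fragments of the same group of nuclei. Adarb2 stood at 759 in sham members (734 to 785) against 88.1 in the other sham nuclei, and at 678 in stroke members (650 to 707) against 107. Prox1 was at 63.4 in sham members (56.3 to 71.1) against 8.88, and at 60.4 in stroke members (52.2 to 69.6) against 14.1. Calb2, which encodes a calcium-binding protein, was at 56.6 against 13.6 in sham and at 49.2 against 12.7 in stroke. Npas1 was at 66.0 against 14.96 in sham and at 64.8 against 13.8 in stroke. Htr3a was at 16.0 against 3.80 in sham and at 10.0 against 4.07 in stroke. Vip rested on 17 fragments in sham members and 11 in stroke members, at 3.73 against 1.04 and at 3.45 against 1.45. Per kb of gene, the sham members' level was highest for Npas1 and lowest for Vip (0.444), and Adarb2 (1.34), Htr3a (1.35) and Prox1 (1.20) lay close together.

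**Figure D1:**
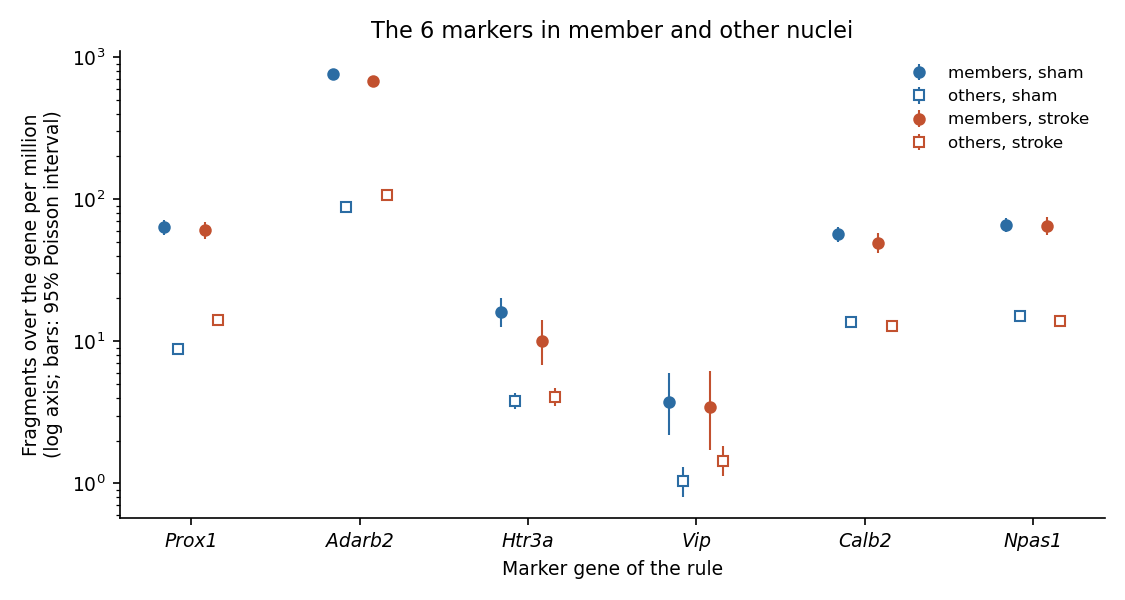
Fragments over each of the 6 markers in CPM (log axis) in member nuclei (filled circles) and other nuclei (open squares) of the sham (blue) and stroke (red) libraries, with 95% Poisson intervals. Members lie above other nuclei at each marker because the markers chose them, and Adarb2, at 759 in sham and 678 in stroke members, stands far above the 5 shorter genes.

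The extra Adarb2 fragments were spread along the gene. In windows of 10 kb the members' level was above that of the other nuclei in every window from the start to 560 kb downstream, in both libraries. It ranged from 6.80 to 26.1 per window in sham members and, over the same stretch, from 0.503 to 4.69 in the other sham nuclei. The window just before the start was also high in both libraries, and the level dropped further upstream. The rule counts fragments from 2 kb upstream to the end of the gene and so sets the contrast there. Sham members were also above the other sham nuclei in the windows the rule did not count. Examples are 2.19 against 1.49 at 100 kb upstream, 3.73 against 0.414 at 50 kb upstream and 12.9 against 5.13 at 590 kb. Stroke members were above the other stroke nuclei in most of these windows. They were below them at 600 kb (3.76 against 4.20) and at 620 kb (7.21 against 7.80). In the 250 bases before the start, printed here because they are the promoter of the gene on which most members rest, sham members had 53 fragments, a level of 11.6 (8.71 to 15.2), against 4.88 in the other sham nuclei. Stroke members had 34, a level of 10.7 (7.38 to 14.9), against 3.78. The sequence is from RefSeq on GRCm38.p6 at chr13:8202616-8202865, forward strand, and capitals mark TAATTA, the core bound by many homeobox factors, which occurs 1 time and is found in 4.84% of the 32851 RefSeq promoters of this length.
Adarb2 promoter: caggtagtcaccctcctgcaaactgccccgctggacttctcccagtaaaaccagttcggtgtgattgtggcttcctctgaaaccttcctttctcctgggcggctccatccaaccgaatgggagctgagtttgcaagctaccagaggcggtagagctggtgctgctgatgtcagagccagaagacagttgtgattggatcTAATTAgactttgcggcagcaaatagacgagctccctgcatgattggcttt

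**Figure D2:**
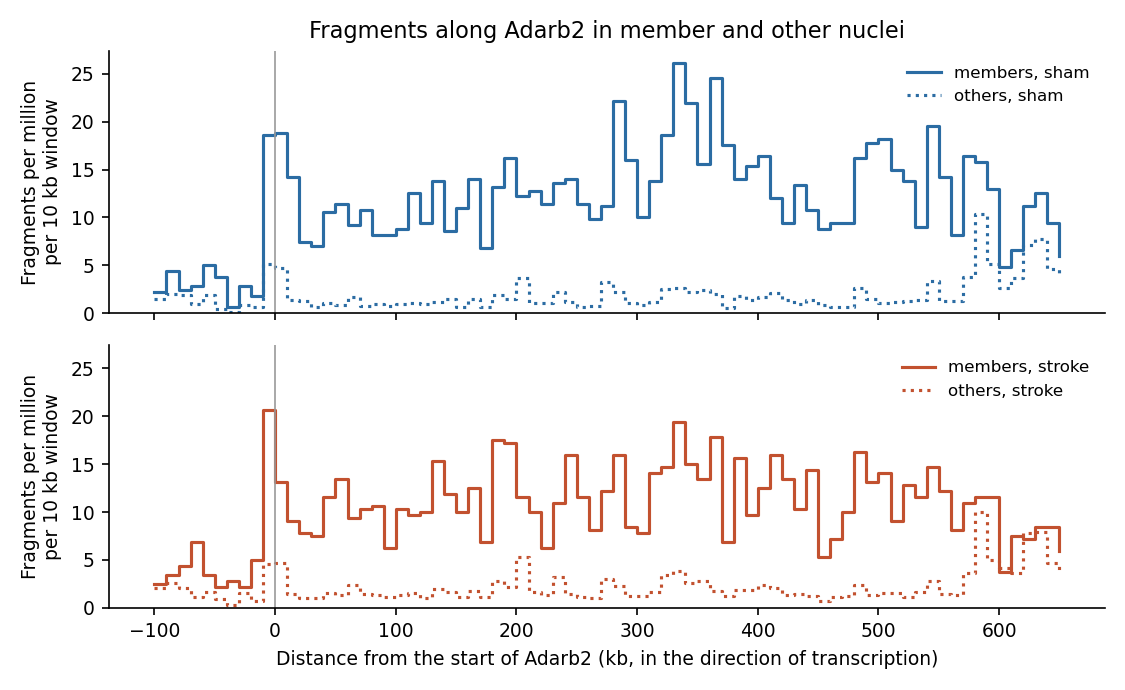
Fragments in CPM in 10 kb windows (vertical axis) by distance in kb from the start of Adarb2 (horizontal axis, in the direction of transcription), for members (solid) and other nuclei (dotted) of the sham (top) and stroke (bottom) libraries. The solid line lies above the dotted line from the start, marked by the vertical line, to 560 kb, and in the window just before the start.

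Members near the threshold differed little from nuclei just outside it. In the sham library the 3 members with the lowest z had 14, 8 and 7 marker fragments where 6.41, 2.89 and 2.36 were expected. The 3 sham nuclei with the highest z under the threshold had 11, 10 and 5 where 4.597, 4.03 and 1.44 were expected. In the stroke library the lowest members had 5, 9 and 10 where 1.42, 3.43 and 3.99 were expected, and the nuclei just below had 5, 8 and 7 where 1.42, 2.90 and 2.39 were expected. In each library 15 further nuclei reached z of 3 with fewer than 5 fragments and were not members. The median member had 11 marker fragments in sham and 10 in stroke, against medians of 1 in the other nuclei of each library, and z reached 27.8 in sham and 30.2 in stroke.

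Member nuclei were as deep as the rest, with lower enrichment. The median was 11817 fragments in sham and 12158 in stroke members, against 11508 and 11168 in the other nuclei. The median share of fragments in peaks was 33.5% in sham and 30.02% in stroke members, against 39.7% and 34.0%. Median enrichment at transcription start sites was 4.26 and 4.08 in members, against 4.69 and 4.32. The part these differences have in the results below was not tested. The libraries shared 34 barcodes, of which 6 were members in either library and 0 in both. No doublets were removed. Of the members, 25.1% in sham and 25.5% in stroke also passed the same gate with a glial, myeloid, vascular or excitatory marker list, against 28.4% and 33.2% of the other nuclei.

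The name interneuron was checked against a list of 10 genes of GABAergic neurons that the rule did not use. The list includes the GABA-synthesising enzymes Gad1 and Gad2, the vesicular GABA transporter Slc32a1, homeobox factors such as Dlx1, Dlx2, Dlx5 and Dlx6, and the neuregulin receptor Erbb4. Its summed level was 597 (575 to 620) in sham members and 325 (321 to 330) in the other sham nuclei, a ratio of 1.83 (1.76 to 1.91). It was 497 (473 to 522) in stroke members and 349 (344 to 355) in the others, a ratio of 1.42 (1.35 to 1.499). Nuclei gated by an Lhx6 lineage list, as a second kind of interneuron, stood at 631 in sham and 606 in stroke, so the interval of the sham members overlapped that of these nuclei (608 to 654) and the stroke members lay below theirs (581 to 632). Nuclei gated by a striatal projection neuron list, also GABAergic, stood at 518 (504 to 533) in sham and 519 (496 to 543) in stroke, so an excess on this list does not separate interneurons from striatal neurons. The striatal list itself had ratios of members to others of 0.948 (0.917 to 0.979) in sham and 0.953 (0.913 to 0.994) in stroke, and 11.9% of sham and 5.76% of stroke members passed its gate, against 12.2% and 6.89% of the other nuclei. The list was above its expectation in 60.2% of sham and 61.3% of stroke members, against 33.1% and 37.8% of the other nuclei, and it passed the full gate in 26.3% and 18.1% of members. The members were therefore richer in GABAergic signal than the rest of the library, but 141 of 354 in sham and 94 of 243 in stroke showed no excess at these genes. A single nucleus holds few fragments at these genes, so this split cannot show which or how many members are interneurons. The nuclei are called members below, not interneurons.

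The level of the GABAergic list was highest in the nuclei with the highest z. In the sham library it was 306 in nuclei with z under 0, 412 in the non-members with z of at least 2, 504 (467 to 544) in the 92 members with z from 3 to 4, 573 in the 121 with z from 4 to 6, and 693 (654 to 734) in the 141 with z of 6 and over. In the stroke library the same steps were 331, 423, 467, 464 and 570 (524 to 620). In stroke the intervals overlapped from z of 2 up to z of 6, and the top step stood above them. The excitatory list, with Slc17a7 and Neurod2 among its genes, ran the other way, from 637 at z under 0 to 390 in the top step of sham and from 557 to 398 in stroke. The Lhx6 lineage list stayed between 309 and 416 over all steps of both libraries. Nuclei gated by that list stood at 1239 in sham and 1182 in stroke, but their gate set these levels, so nothing is read from that contrast.

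**Figure D3:**
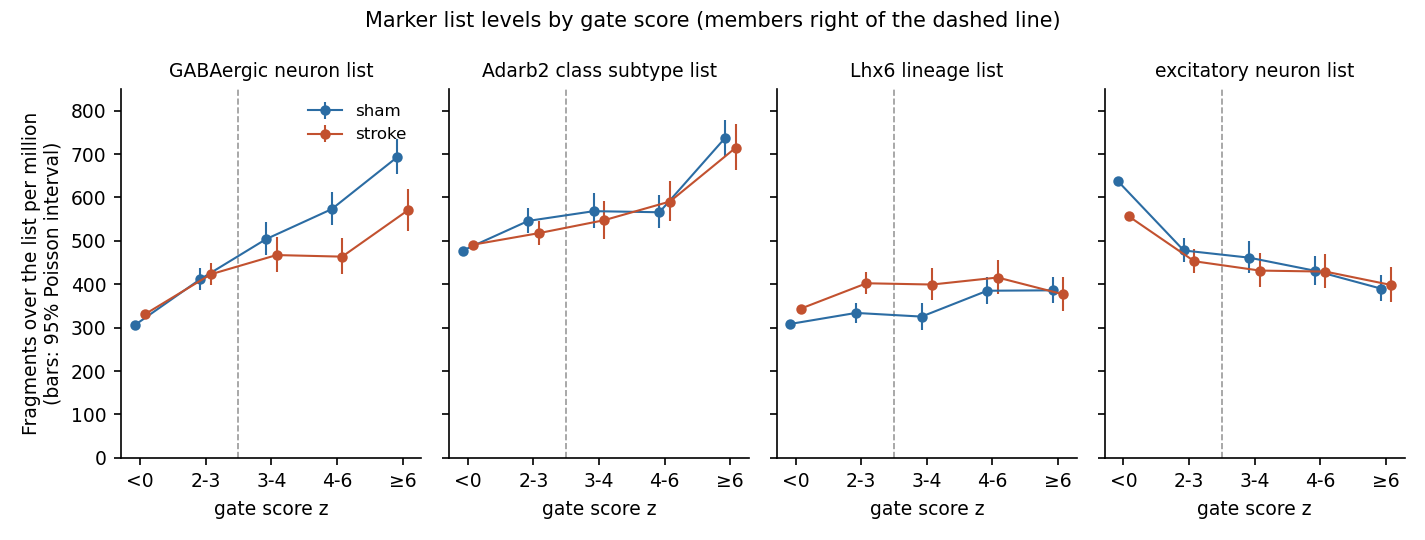
Summed level of 4 marker lists (CPM, vertical axis, with 95% Poisson intervals) by gate score z (horizontal axis), for the sham (blue) and stroke (red) libraries; members lie to the right of the dashed line. The GABAergic list climbs to 693 in sham and 570 in stroke at z of 6 and over, the excitatory list falls to 390 and 398, and the Lhx6 lineage list stays between 309 and 416.

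Among the single GABAergic genes, 7 of 10 had enough fragments to be compared in both libraries (at least 30 expected in members). Of these, 6 were higher in members in both libraries and 0 lower in both, where 26.4% of all 14309 genes compared were higher and 31.7% lower. Their median log2 difference from the other nuclei was 0.77 in sham and 0.56 in stroke, against 0.0031 and −0.033 over all genes. A large part of the list's summed level, and of its excess in members, came from Erbb4. It stood at 283 in sham members (268 to 299) against 139, and at 238 in stroke members (221 to 255) against 162. Gad2 stood at 54.8 against 32.1 in sham and at 50.7 against 34.5 in stroke. Gad1 stood at 82.5 against 49.6 in sham and at 66.4 against 48.2 in stroke. Slc32a1 stood at 21.3 against 16.0 in sham and at 25.1 against 13.5 in stroke.

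A list of 16 genes of the subtypes within the Adarb2 class was also higher in members, at 630 (607 to 653) against 488 in sham and at 613 (586 to 641) against 496 in stroke. The striatal list nuclei that were not members had like levels on this list, 636 (620 to 652) in sham and 608 (583 to 633) in stroke, while the Lhx6 list nuclei stood at 528 and 530. Of 12 genes compared, 9 were higher in both libraries and 3 lower in both, where 26.4% and 31.7% of all genes were. Over promoters alone the list was lower in stroke members than in other stroke nuclei (−0.15 on the log2 scale). Kit, a receptor tyrosine kinase found in neurogliaform and other reelin cells, had the same level in the members of both libraries, 56.4 (49.7 to 63.7) in sham and 56.4 (48.4 to 65.2) in stroke, against 29.3 and 29.1. Nr2f2, the COUP factor of caudal origin, stood at 20.2 against 12.5 in sham and at 17.9 against 12.1 in stroke. Cnr1, the cannabinoid receptor of cholecystokinin cells, stood at 30.7 against 20.7 in sham and at 29.1 against 22.0 in stroke. Lamp5, Cck and Id2 were the 3 genes with lower levels in both libraries. For Lamp5 and Cck the interval of the ratio of members to others included 1 in both libraries, at 0.653 to 1.08 in sham and 0.700 to 1.34 in stroke for Lamp5.

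The excitatory, dentate granule, astrocyte and oligodendrocyte lists were lower in members in both libraries. The excitatory list stood at 425 (406 to 444) in sham members against 613 and at 421 (398 to 444) in stroke members against 531. Slc17a7, a vesicular glutamate transporter, was at 33.1 against 56.0 in sham and at 37.0 against 40.4 in stroke. The dentate granule list, which was kept because those cells use Prox1 too, was at 271 against 364 in sham and at 309 against 375 in stroke. Astrocyte and oligodendrocyte lists had ratios of 0.818 and 0.757 in sham and of 0.798 and 0.896 in stroke. Myeloid and vascular lists were near the rest in sham (1.02 and 0.989) and below it in stroke (0.893 and 0.858). The oligodendrocyte precursor list was above the rest in sham, with a ratio of 1.15 (1.05 to 1.27), and near it in stroke, at 0.979 (0.870 to 1.10). The Lhx6 lineage list had ratios of 1.17 (1.12 to 1.23) in sham and 1.12 (1.06 to 1.18) in stroke. Of 7 genes of it compared, 4 were higher in both libraries and 1 lower in both, where 26.4% and 31.7% of all genes were. Their median log2 difference was 0.19 in sham and 0.017 in stroke. Nxph1 and Elfn1 were higher in both libraries, and Lhx6 itself stood at 15.6 against 11.6 in sham and 12.8 against 12.7 in stroke. The sign of this list turned over promoters alone in sham (−0.059) and with Adarb2 out of the gate in stroke (−0.11).

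**Figure D4:**
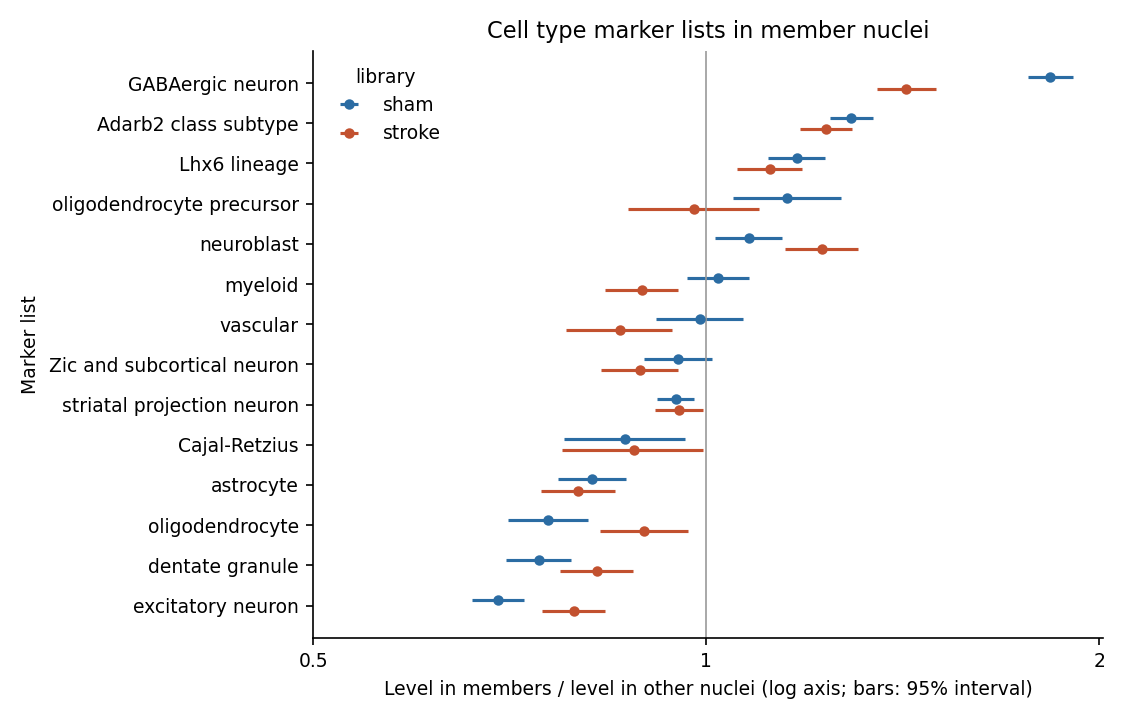
Level of each cell type marker list in members divided by its level in the other nuclei (horizontal log axis, 95% intervals) for the sham (blue) and stroke (red) libraries, with lists on the vertical axis in the order of the sham ratio. The GABAergic list is highest (1.83 in sham, 1.42 in stroke) and the excitatory list lowest (0.693 and 0.792).

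Across single genes, members and other nuclei differed by small factors. Of the 14309 protein-coding genes compared outside the marker loci, 0 (0.0%) were at least 2-fold higher in members in both libraries, and 2 (0.014%) were at least 2-fold lower, Gm11549 and Ubash3a, with 17 and 11 fragments in stroke members. Ubash3a was higher in members over promoters alone (0.43 in sham and 0.53 in stroke on the log2 scale). At 1.5-fold, a limit added after seeing this, 22 genes (0.154%) were higher and 32 (0.224%) lower. The higher genes held the homeobox factor Dlx1 and the receptor Kit of the lists above, and a further group that was in no list. Cntnap3, a neurexin-family adhesion protein, stood at 46.5 (40.4 to 53.2) in sham members against 21.2, and at 42.0 (35.2 to 49.7) in stroke members against 21.5. With Adarb2 left out of the gate its sign turned in stroke (−0.18 on the log2 scale), as did that of Dlx1 in sham (−0.11). Zfp536, a zinc-finger protein, stood at 222 against 99.2 in sham and at 181 against 107 in stroke. Igf1, insulin-like growth factor 1, stood at 30.5 against 15.5 in sham and at 37.6 against 20.4 in stroke. Lama1, a laminin chain, stood at 43.0 against 24.2 in sham and at 65.8 against 30.4 in stroke, but over promoters alone it was lower in sham members (−0.56), and 1 stroke member held 61 of its 210 stroke fragments. Nr2e1, an orphan nuclear receptor, stood at 18.2 against 9.89 in sham and at 19.1 against 12.1 in stroke. Several of these levels were also found in the Lhx6 list nuclei. Lhx6 list nuclei stood at 50.2 in sham and 35.2 in stroke for Cntnap3, at 205 and 175 for Zfp536, at 52.8 and 48.0 for Lama1, at 18.4 and 17.2 for Nr2e1 and at 25.2 and 20.2 for Dlx1. For Igf1 they stood lower, at 20.99 and 24.8, and for Kit at 39.6 and 31.6. The cortical homeobox factor Lhx2 was among the lower genes, at 20.4 against 37.1 in sham and at 20.7 against 32.6 in stroke. The other lower genes included several with under 30 fragments in stroke members, such as Cd37 (27) and Sod3 (19).

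Receptor and channel genes differed in both directions. Of 19 synaptic receptor and channel genes, 8 were higher in members in both libraries and 7 lower in both, where 26.4% of all genes compared were higher and 31.7% lower, with median log2 differences of 0.00091 in sham and 0.07 in stroke. Of 10 genes compared in a receptor and neuropeptide list, 3 were higher in both libraries and 3 lower in both. The receptor and neuropeptide genes named next all had higher levels in members, and none of the lower genes is named. The kainate receptor subunit Grik1 was at 118 (109 to 129) against 75.9 in sham and at 123 (111 to 136) against 85.1 in stroke. The NMDA receptor subunit Grin2d was at 82.7 against 59.0 in sham and at 85.5 against 49.0 in stroke. Chrna7, the nicotinic alpha-7 subunit, was at 72.4 (64.8 to 80.6) against 44.1 in sham and at 53.2 (45.5 to 61.9) against 35.6 in stroke. Npy, a neuropeptide of several interneuron classes, was at 8.77 against 3.36 in sham and at 4.70 against 4.09 in stroke, on 40 and 15 fragments, too few for the comparison above. Of 18 immediate early genes, 0 were higher in members in both libraries and 12 were lower in both, with medians of −0.15 in sham and −0.14 in stroke. Over all open bins of 500 bp, compared below, the members' median log2 difference was −0.22 in both libraries. Its part in the lower levels of these genes was not tested.

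The members were then split by the GABAergic list, a comparison added after seeing the data. The 213 sham and 149 stroke members above expectation for that list were set against the 1852 and 1564 other nuclei above it, so the list itself was used for the split and is not read here. Kit was the 1 gene of 12032 at least 2-fold higher in both libraries, at 71.1 (61.3 to 81.9) against 28.1 in sham and at 72.4 (60.8 to 85.6) against 29.4 in stroke. Sema3c, a secreted semaphorin, was at 57.5 against 24.9 in sham and at 58.1 against 34.3 in stroke. Cnr1 was at 35.3 against 21.7 in sham and at 33.8 against 20.7 in stroke. Grin2d was at 101 against 66.2 in sham and at 90.9 against 55.7 in stroke. The 3 genes at least 2-fold lower were Mindy4b-ps, Pdlim4 and Oprd1. Oprd1, the delta opioid receptor, was at 13.2 (9.17 to 18.3) against 34.1 in sham and at 12.2 (7.71 to 18.2) against 27.1 in stroke. The striatal projection neuron list stood at 913 (877 to 950) against 1167 in sham and at 780 (741 to 821) against 887 in stroke. The subtype list stood at 743 (711 to 776) against 562 in sham and at 686 (649 to 724) against 547 in stroke.

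The members not above expectation for the GABAergic list numbered 141 in sham and 94 in stroke. Their marker level was 847 in sham and 802 in stroke, below the 1049 and 909 of the members above expectation. It was far above the 130 and 154 of the other nuclei, since the rule set it. Their subtype list stood at 472 (441 to 504) in sham and 507 (469 to 548) in stroke, near the 488 and 496 of the other nuclei. Their excitatory list stood at 526 and 573, against 353 and 316 in the members above expectation. Against the other nuclei it was lower in sham and higher in stroke. Both sides were chosen on the GABAergic list, so their difference is a description only.

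Open regions were compared in bins of 500 bp that held at least 50 fragments in each library and at least 5 times the mean bin, leaving out bins within 100 kb of a marker. Of 109078 open bins, 0 (0.0%) were at least 4-fold higher in members in both libraries with 10 member fragments in each. At 2-fold, added after seeing this, 36 bins (0.033%) were higher. Members had fewer fragments in open bins in general, with a median log2 difference of −0.22 in both libraries. Against that, the 41 open bins within 10 kb of the GABAergic genes had medians of 0.57 in sham and 0.32 in stroke, 21 (51.2%) were higher in both libraries against 16362 of all 109078 open bins, and 3 were among the 36. The 176 bins of the excitatory genes had medians of −0.36 and −0.19, 23 (13.1%) were higher in both libraries, and 0 were among the 36. The 78 bins of the Adarb2 class subtype genes had medians of −0.12 in sham and −0.11 in stroke. Of these, 18 (23.1%) were higher in both libraries and 31 lower in both, and 0 were among the 36. Of all open bins, 48397 were lower in both. Bins with the most extreme ratios rest on few fragments, and 10 to 20 member fragments per library lay behind each bin named here.

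Among the bins at GABAergic genes were those at Gad1 and Dlx5. At Gad1, chr2:70562001-70562500 had 20 fragments in sham members, a level of 4.39 (2.68 to 6.78) against 1.82, and 17 in stroke members, a level of 5.33 (3.10 to 8.53) against 1.92. At Dlx5, chr6:6881501-6882000, within exons, had levels of 3.95 against 1.67 and of 3.76 against 1.36. By the smaller of the ratios in the 2 libraries, the first bin was in an intron of Nfib, a nuclear factor I gene, at chr4:82690001-82690500, with 14 sham and 11 stroke member fragments at levels of 3.07 (1.68 to 5.15) against 0.932 and of 3.45 (1.72 to 6.17) against 0.930. An intronic bin of Gabbr2, a GABA-B receptor subunit, at chr4:46700001-46700500 had 10 and 13 fragments at levels of 2.19 against 0.843 and of 4.07 against 0.827. An intronic bin of the striatal gene Pde10a at chr17:8647501-8648000 had levels of 3.29 against 0.976 in sham and of 4.07 against 1.47 in stroke.

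The parts of 4 of these bins that hold no exon are shown, at most 300 bases each: Gad1 as a gene of the GABAergic list, Nfib as the first bin by the smaller of its ratios in the 2 libraries, and Gabbr2 and Pde10a as intronic bins in neuronal genes. They are read from GRCm38, forward strand, and capitals mark TAATTA and CAGCTG, an E-box, both palindromes.
Gad1, chr2:70562337-70562500: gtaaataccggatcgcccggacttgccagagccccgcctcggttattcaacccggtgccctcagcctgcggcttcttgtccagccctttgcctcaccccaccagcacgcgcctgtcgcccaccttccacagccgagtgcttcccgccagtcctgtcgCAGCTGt
Nfib, chr4:82690101-82690400: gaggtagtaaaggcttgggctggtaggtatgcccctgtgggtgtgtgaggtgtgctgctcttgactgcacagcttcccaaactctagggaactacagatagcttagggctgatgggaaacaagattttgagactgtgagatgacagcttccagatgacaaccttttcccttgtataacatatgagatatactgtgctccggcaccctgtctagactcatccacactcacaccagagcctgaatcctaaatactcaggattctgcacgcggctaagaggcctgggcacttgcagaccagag
Gabbr2, chr4:46700101-46700400: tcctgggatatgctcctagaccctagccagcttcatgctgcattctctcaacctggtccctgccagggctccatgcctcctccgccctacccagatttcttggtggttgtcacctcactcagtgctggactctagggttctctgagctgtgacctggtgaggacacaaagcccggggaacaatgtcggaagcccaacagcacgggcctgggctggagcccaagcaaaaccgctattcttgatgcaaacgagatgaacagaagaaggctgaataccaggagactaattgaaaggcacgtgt
Pde10a, chr17:8647601-8647900: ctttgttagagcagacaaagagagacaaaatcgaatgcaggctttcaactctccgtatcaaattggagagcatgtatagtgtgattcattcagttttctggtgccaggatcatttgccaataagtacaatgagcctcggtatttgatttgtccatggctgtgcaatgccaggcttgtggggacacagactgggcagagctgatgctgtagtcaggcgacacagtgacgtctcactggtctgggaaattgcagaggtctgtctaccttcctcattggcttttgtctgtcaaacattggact
The Gad1 sequence holds 1 CAGCTG and no TAATTA, and those of Nfib, Gabbr2 and Pde10a hold neither. The 36 bins had to hold at least 10 member fragments in each library and the open bins did not. The motif shares below are therefore not from like sets of bins. Over whole bins and both strands, TAATTA was in 7 of the 36 bins (19.4%) and in 8.12% of all open bins, and CAGCTG in 15 (41.7%) and in 30.8%. AACAAAG, a SOX motif, was in 8 (22.2%) and in 9.51%, and the AP-1 motif TGACTCA in 2 (5.56%) and in 12.7%. A match is a description of these letters and not evidence that a factor was bound.

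By the exact binomial method, the share of members was 5.95% (5.36 to 6.58) in the sham library and 5.55% (4.89 to 6.27) in the stroke library. These are shares of the barcodes that passed the filter, 5949 of 6979 called in sham and 4380 of 8740 in stroke. The ratio of stroke to sham was 0.932 (0.789 to 1.10), an interval that covers counting error within these libraries and says nothing of the spread between animals. Adarb2 stood at 107 CPM in the other stroke nuclei and at 88.1 in the other sham nuclei, and at 678 in stroke and 759 in sham members. The rule used these fragments, so nothing is read from that contrast. The GABAergic list, which the rule did not use, stood lower in stroke than in sham members (497 against 597). In the other nuclei it stood at 349 in stroke against 325 in sham.

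Between the conditions, 60 of 14320 genes (0.419%) were at least 2-fold higher in stroke members than in sham members and 60 (0.419%) at least 2-fold lower. The median log2 difference was −0.11 over all genes in members and −0.08 in the other nuclei. Of the 60 higher genes, 7 were also at least 2-fold higher in the other nuclei and the median there was 0.48. Of the 60 lower genes, 0 were at least 2-fold lower there and the median was −0.19. These counts depend on how fragments are counted. With levels scaled to the fragments in genes 90 were higher and 36 lower, with promoters alone 1 was higher and 59 lower, and with at most 2 fragments per gene and nucleus, an alternative added after single nuclei with many fragments were seen, 31 were higher and 17 lower. A gene named below is a difference between these libraries and not a tested effect of stroke.

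Some genes of the inflammatory response stood higher in the stroke members. Of 9 such genes compared, 3 were at least 2-fold higher and 0 lower, where 0.419% of all genes were in each direction, with a median log2 difference of 0.26 in members and 0.38 in the other nuclei. Bcl3, an NF-kB cofactor, stood at 9.43 (6.82 to 12.7) in sham and 24.7 (19.6 to 30.8) in stroke members, and at 10.6 and 28.2 in the other nuclei. The log2 difference was thus 1.39 in members, 1.41 in the others and 1.35 in Lhx6 list nuclei. Socs3, a feedback inhibitor of cytokine signalling, stood at 12.1 (9.09 to 15.7) in sham and 26.9 (21.5 to 33.3) in stroke members, and at 16.5 and 27.9 in the others. Osmr, the oncostatin M receptor, stood at 9.43 (6.82 to 12.7) and 19.1 (14.6 to 24.5) in members, and at 9.80 and 20.1 in the others. The difference was of like size in members and in the rest of the library for Bcl3 and Osmr. The myeloid list was at 311 in sham and 312 in stroke members, against 305 and 349 in the others, and the astrocyte list at 250 and 305, against 305 and 383.

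The 10 genes higher in stroke members by the bound of their ratio nearest to 1 were Skint6, Adamts19, Catsperb, Muc16, Ikzf1, Cp, Ggta1, Bcl3, Skint5 and Rbm47. Skint6, a butyrophilin-like gene of skin with near-identical neighbours including Skint5, stood at 10.3 (7.57 to 13.7) in sham and 43.8 (36.9 to 51.7) in stroke members, and at 10.2 and 23.9 in the others. Its fragments lay in 48 stroke members, and 1 nucleus held 19 of 140. Over promoters alone the sign turned for Skint6 (−0.49) and for Cp (−0.071). Ikzf1, a lymphoid transcription factor, stood at 10.3 and 27.2, with 17 of 87 stroke fragments in 1 nucleus. Cp, which encodes ceruloplasmin, stood at 5.70 (3.72 to 8.36) and 16.9 (12.7 to 22.1), with at most 3 fragments in any stroke member. All 10 had a positive difference in the other nuclei too, between 0.62 and 1.44 on the log2 scale.

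The 10 lower genes were Atp2a3, Cda, Wdr5, Mylk2, Spata24, Ttc34, Map1lc3a, Gzmm, Tmem258 and Haus2. Atp2a3, a calcium pump of the endoplasmic reticulum, stood at 22.6 (18.4 to 27.4) in sham and 4.70 (2.63 to 7.75) in stroke members, and at 10.9 and 9.90 in the others. In the Lhx6 list nuclei it stood at 17.6 and 8.18, a log2 difference of −1.11. Its 103 sham fragments lay in 38 members, and 1 of them held 18. Map1lc3a, an autophagy protein, stood at 33.1 (28.0 to 38.8) and 14.1 (10.3 to 18.9), and at 27.6 and 20.4 in the others, with at most 5 fragments in any sham member. Wdr5, a subunit of histone methyltransferase complexes, stood at 36.0 and 14.7 in members and at 23.5 and 23.0 in the others, with 16 of 164 sham fragments in 1 nucleus. Mylk2, a myosin kinase of muscle, was higher in stroke members (0.36) when Adarb2 was left out of the gate. The other nuclei differed by between −0.45 and 0.15 on the log2 scale for these 10.

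**Figure D5:**
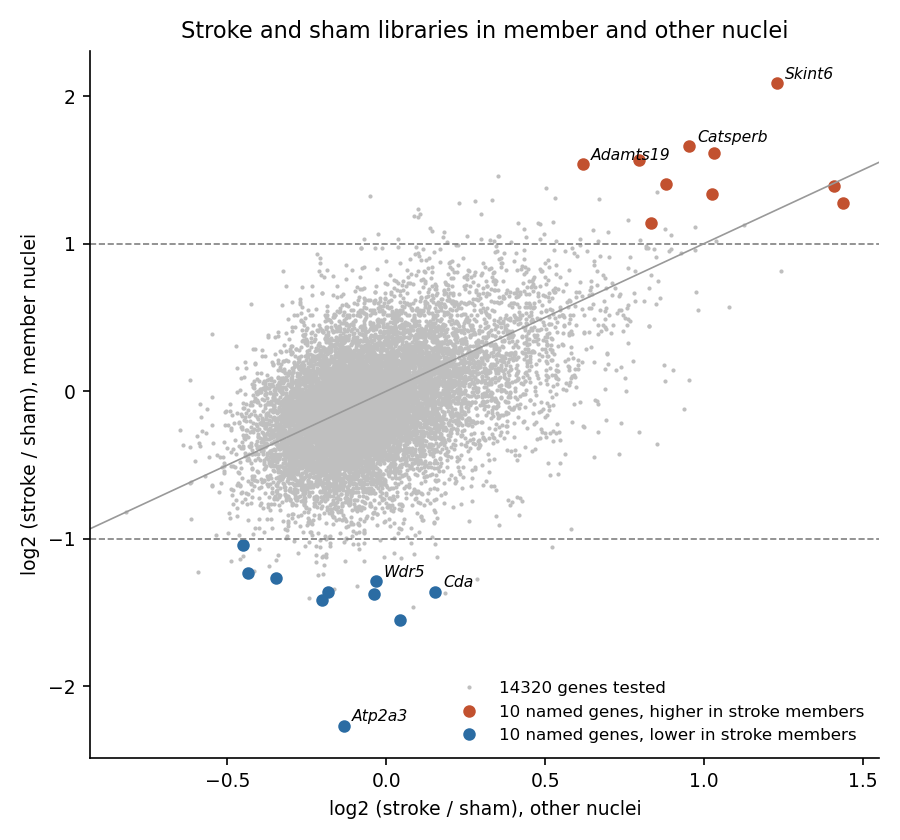
Log2 ratio of stroke to sham in members (vertical axis) against that in the other nuclei (horizontal axis) for the 14320 genes compared (grey), with the 10 named higher (red) and 10 named lower (blue) genes, dashed lines at 2-fold and a line of equality. The red genes lie right of 0 on the horizontal axis and the blue genes near 0, with Skint6 at 2.09 and Atp2a3 at −2.27 the farthest out in members.

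Of the 10 GABAergic genes, all comparable between conditions, 0 were past 2-fold, where 0.419% of all genes were in each direction, with a median log2 difference of −0.20 in members and 0.04 in the others. Erbb4 stood at 283 and 238, a log2 difference of −0.25. Of 13 subtype genes, 18 immediate early genes, 11 injury and stress genes, 5 heat shock genes, 9 hypoxia and glycolysis genes and 9 cell death genes, 0 were past 2-fold in either direction. Their medians lay between −0.20 and −0.0091, and that of all genes was −0.11. In the dentate granule list 1 of 5 genes passed 2-fold, the cation channel Trpc6, at 16.9 (13.3 to 21.1) in sham and 36.3 (30.02 to 43.6) in stroke members against 26.4 and 29.1 in the others, with 21 of its 116 stroke fragments in 1 nucleus. In the oligodendrocyte list 1 of 3 genes passed it.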

How the data were processed

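Nuclei of mouse brain were profiled by droplet ATAC-seq in 1 sham and 1 stroke library. Per the submitters' processing notes, the authors aligned reads with Cell Ranger ATAC 2.1.0 to mm10 and deposited, for each library, the list of fragments and a table of counts for every barcode, with no normalization. The deposited counts were used as they are. The gate and the members and lists were chosen with earlier results of these data known. Barcodes called as cells were kept with 1000 to 100000 fragments in peaks making up over 20% of their fragments, which left 5949 of 6979 sham and 4380 of 8740 stroke barcodes with a median of 11532 and 11225 fragments. Fragments were counted over each protein-coding gene of GENCODE M21 (GRCm38) plus 2 kb upstream and scaled to CPM, per 1000000 fragments of a group. A gene was compared where at least 30 fragments were expected in each group. Named genes are the markers, the list genes, and up to 15 higher and 8 lower (members against others) or 10 each way (stroke against sham, by the ratio bound nearest 1) past 2-fold. Genes at 1.5-fold were named after their values were seen. A group with 0 fragments was set to 3. Intervals are exact Poisson, binomial (Clopper-Pearson) or conditional binomial. Python 3.11.15, NumPy 2.4.6 and SciPy 1.17.1 were used. The code for the fold calls was run on simulated counts with changes larger than 2-fold and no clumping of fragments in single nuclei. That run cannot show how reliable the calls at 2-fold are in these data. Doublets were not removed. The alternatives are given in the closing section. Some genes of the lists are counted in the list values but not reported singly here.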

Additional observations from a re-analysis of the deposited data

How the results depend on the processing

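The share ratio of stroke to sham stayed between 0.819 and 0.950 under the alternatives for which shares were computed. They left out z of at least 6, which 141 sham and 77 stroke members reached. No alternative relaxed the barcode filter, which kept 5949 of 6979 called barcodes in sham and 4380 of 8740 in stroke. The share of all called barcodes was not compared. Below, GABAergic members or nuclei are those above expectation for the GABAergic list. The shares were 4.40% in sham and 3.77% in stroke with z of at least 4, 2.00% and 1.76% with Adarb2 left out of the gate, 4.45% and 4.13% without members also gated by a glial, myeloid, vascular or excitatory list, 3.58% and 3.40% with only members above expectation for the GABAergic list, and 3.32% and 3.10% with nuclei thinned to 5000 fragments, which left out 731 and 542 nuclei. Without Adarb2 the gate kept 119 sham and 77 stroke nuclei, of which 73 and 43 were members. Genes at least 2-fold higher in members numbered 2 without Adarb2, 1 without members gated by other lists, 6 with GABAergic members, 3 with at least 10 expected fragments, 22 at 1.5-fold, 1 with z of at least 6 and 1 with GABAergic nuclei on both sides. Genes at least 2-fold lower numbered 0 with z of at least 4, without Adarb2, with promoters alone, with at least 100 expected fragments and with z of at least 6, then 1 without Prox1 or thinned, 11 with GABAergic members, 4 with at least 10 expected fragments and 32 at 1.5-fold. Genes higher in stroke members numbered 19 thinned, 1 with promoters alone, 310 and 6 with at least 10 and 100 expected fragments, and 31 with at most 2 fragments per gene and nucleus. Genes lower there numbered 108 with z of at least 4, 149 without Adarb2, 92 without members gated by other lists, 142 with GABAergic members, 201 and 3 with at least 10 and 100 expected fragments, 36 scaled to fragments in genes and 17 capped at 2. Open bins higher in members numbered 36 at 2-fold and 0 at 4-fold. The cause of these moves was not tested. Without Adarb2 in the gate the sign turned, on the log2 scale, for the Lhx6 lineage list in stroke (−0.11), Cntnap3 in stroke (−0.18), Dlx1 in sham (−0.11), Ubash3a and Muc15 in stroke (0.099 and 0.097) and Mylk2 between conditions (0.36). With promoters alone it turned for the Lhx6 lineage list in sham (−0.059), the subtype list in stroke (−0.15), Lama1 (−0.56) and Gpat3 (−0.69) in sham, Ubash3a (0.43 in sham and 0.53 in stroke), and Skint6 (−0.49) and Cp (−0.071) between conditions. Thinned, it turned for Sod3 in sham (0.41). Of the list ratios, 84 stayed within their interval, 33 moved and 3 turned. No paired analysis was possible because there is only 1 library of each kind. Single genes and bins are limited by the number of member fragments.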

Other observations

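The neuroblast list, which holds genes of newly formed neurons, was higher in members than in other nuclei, with ratios of 1.08 (1.02 to 1.14) in sham and 1.23 (1.15 to 1.31) in stroke. Of 7 genes compared, 5 were higher in both libraries and 1 was lower in both, where 26.4% and 31.7% of all genes were, and 0 were past 2-fold, as were 0 of all 14309 genes in the higher direction. Pbx3, a homeobox factor, stood at 83.1 (75.0 to 91.9) against 69.4 in sham and at 92.1 (81.9 to 103) against 71.2 in stroke. Among GABAergic nuclei alone, Pbx3 was lower in members in sham, at 97.8 against 106, and higher in stroke, at 119 against 92.1. An excess over all other nuclei is thus not shown to be particular to members among GABAergic nuclei. Tshz1, a zinc-finger factor, stood at 61.9 (54.8 to 69.5) against 50.4 in sham and at 70.5 (61.6 to 80.3) against 53.2 in stroke. Dcx, the defining microtubule protein of migrating neuroblasts, was at 34.4 against 35.9 in sham and at 28.5 against 28.8 in stroke.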
